A study of Mus musculus with 3 samples.

Results

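Heme and iron handling was followed in aortic immune cells through 10 genes of 32285 in the count table: *Cd163*, *Slc48a1*, *Hmox1*, *Blvrb*, *Trf*, *Tfrc*, *Slc11a1*, *Fth1*, *Ftl1* and *Slc40a1*, with the antibody against CD163 beside them. The genes were chosen by name for their roles in heme and iron metabolism, with earlier results of these samples known, so their levels over cell types are given as a description. CD45+ cells came from the aortas of 5 Jak2WT mice and 5 littermates that carried Jak2V617F in myeloid cells, called Jak2V617F Myel here and Jak2V617F MyC in the labels. Of the 5 mutant mice, 3 had aortic dilation without aneurysm and 2 had an aneurysm. The mice shared a C57BL/6 background, were of both sexes and received no treatment, and their age was not given in the sources used here. An antibody injected shortly before death marked blood leukocytes so that they could be left out of the sort, and aortas were digested with enzymes at 37 °C. LysM-Cre switches the mutant *Jak2* allele on in macrophages, monocytes and neutrophils, so lymphocytes of the same aortas carry the unswitched allele. Cells of each mouse were stained separately, marked with their own hashtag antibody and loaded as 1 pool, so there is 1 library of each kind and each hashtag stands for 1 mouse.

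Macrophages take up heme as hemoglobin bound to haptoglobin through the surface receptor CD163, and from red cells they engulf. SLC48A1 carries heme out of the phagolysosome, heme oxygenase 1 (*Hmox1*) opens the ring and frees the iron, and biliverdin reductase B (*Blvrb*) acts on bilins and flavins. Iron also arrives on transferrin (*Trf*) through the transferrin receptor (*Tfrc*), while SLC11A1 moves divalent metals out of the phagosome. The ferritin heavy chain (*Fth1*) oxidizes iron, the light chain (*Ftl1*) helps to build the mineral core, and ferroportin (*Slc40a1*) is the exporter. *Slc11a1* of C57BL/6 mice encodes a protein that does not work, so its transcript says nothing about metal transport.

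In the mouse genome (GRCm38), *Cd163* lies at chr6:124304656-124330527, *Slc48a1* at chr15:97778520-97792692, *Hmox1* at chr8:75093621-75100589 and *Blvrb* at chr7:27447978-27466144, all on the plus strand. *Trf* lies at chr9:103204001-103230444 (minus), *Tfrc* at chr16:32608920-32632794 (plus) and *Slc11a1* at chr1:74375195-74386062 (plus). The ferritin genes lie at chr19:9980598-9985098 (*Fth1*, plus) and chr7:45457944-45459884 (*Ftl1*, minus), and *Slc40a1* at chr1:45908068-45926523 (minus). *Ftl1* and *Trf* overlap another gene on their own strand (*Gm22133*, a microRNA gene, and *Gm20425*). Where that gene was in the reference used for counting, some of their reads may have been left uncounted.

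Some of these transcripts carry iron-responsive elements, hairpins that iron regulatory proteins bind when iron is short. In the 5′ UTR such an element lets the proteins block translation, and in the 3′ UTR it protects the transcript from decay, so the amount of transcript and the amount of protein can part. The hairpins are shown because transcript counts, the only readout here for these genes, do not see the translational arm. Each is printed 5′ to 3′ with 10 bases on either side of the loop CAGTGN, which is in capitals. The search asked for a C, 5 bases, the loop and 5 bases that pair with those before the loop, on the transcribed strand. It found a match in 4 of the 10 genes and in 0.302% of 21877 genes with protein-coding transcripts in GENCODE vM21 (GRCm38).
*Fth1*, 5′ UTR, chr19:9982734-9982759, plus strand: cctgcttcaaCAGTGCttgaacggaa
*Ftl1*, 5′ UTR, chr7:45459780-45459805, minus strand: cttgcttcaaCAGTGTttgaacggaa
*Slc40a1*, 5′ UTR, chr1:45925466-45925491, minus strand: acttcagctaCAGTGTtagctaagtt
*Tfrc* element 1, 3′ UTR, chr16:32631221-32631246, plus strand: ttatcggaagCAGTGCcttccataat
*Tfrc* element 2, 3′ UTR, chr16:32631665-32631690, plus strand: atatcggagaCAGTGAtctccatatg
*Tfrc* element 3, 3′ UTR, chr16:32631712-32631737, plus strand: ttatcgggaaCAGTGTttcccataat
*Fth1*, *Ftl1* and *Slc40a1* hold their match before the coding sequence, and *Tfrc* holds 3 matches, all after it.

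The pool held 8471 barcodes, of which 5857 carried 1 hashtag and 4871 also had at most 10% mitochondrial counts, 1780 from Jak2WT and 3091 from Jak2V617F Myel aortas. Barcodes with more than 1 hashtag (2265) were removed as multiplets. Counts are of unique molecular identifiers (UMIs), each standing for 1 captured transcript, and each mouse gave 1038443 to 9643994 of them. Levels are counts per 1000000 UMIs of a cell class (CPM), per mouse or with all mice summed, and carry no term for transcript length since only 3′ ends are counted. Cell classes were rebuilt by clustering without the 10 genes and named by markers, so they may differ from the study's own. Of 1729 macrophages kept, 669 were resident-like (resident in the plots), 470 were IEG+, macrophages marked by immediate early genes such as *Fos* and *Egr1*, and 483 were *Ccr2*+ inflammatory-like. Mice 7 and 9, the 2 with an aneurysm, gave 232 and 191 of the inflammatory-like cells, and each Jak2WT mouse gave 1 to 13. Summed levels of that class are therefore mostly those of mice 7 and 9. Resident-like macrophages fell into 2 clusters led by *Cd209d* and *Aqp1* (416 cells) and by *Ddit4* and *Txnip* (253 cells). The first made up 18.4 to 65.9% of resident-like cells in Jak2WT mice and 69.7 to 86.4% in mutant mice, so the make-up of the class moved with genotype. *Xist* marked mice 1, 2, 6 and 7 as female, 2 in each genotype. The Jak2 mutation is a base change that 3′ counts do not show, and *Jak2* itself had 9 to 16 UMIs per Jak2WT mouse and 12 to 40 per mutant mouse in resident-like cells.

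The transcript of the hemoglobin receptor was highest in resident-like and IEG+ macrophages but was not confined to them. It also stood at 739 CPM in 64 macrophages named by interferon-induced genes (IFNIC in the plots). The immunoglobulin gene *Igkc* led that cluster, so it may hold mixed droplets, and only 1 mouse gave at least 10 of its cells. Low-RNA macrophages, which were left out of the comparisons, held 960 CPM. *Cd163* stood at 1516 CPM in resident-like and 1232 CPM in IEG+ macrophages, against 65.1 CPM in inflammatory-like macrophages and 109 CPM in type 2 dendritic cells (cDC2). By mouse, the inflammatory-like level was 48.7 and 63.2 CPM in mice 7 and 9, which had aneurysm. It was 212 CPM in Jak2WT mouse 2 and 124 and 155 CPM in mice 6 and 10, which had dilation. With each cell thinned to 2000 UMIs, 79.0% of resident-like cells held a *Cd163* UMI (exact 95% interval 75.8 to 82.1%) and 7.10% of inflammatory-like cells did (4.97 to 9.78%). B cells, which do not make CD163, gave 3.56% (2.16 to 5.50%), the level that free RNA in the droplets can give. Median depth was 10557 UMIs in resident-like cells, 12765 in inflammatory-like cells and 5390 in B cells, and the unthinned shares were 88.0%, 17.8% and 8.56%. The 2 inflammatory-like clusters differed, with 148 CPM where *Hbegf* led and 35.8 CPM where *Mmp12* and *Spp1* led. *Slc48a1* was spread more evenly, from 31.9 CPM in IEG+ to 60.8 CPM in resident-like and 62.7 CPM in inflammatory-like macrophages, and was highest in cDC2 at 77.2 CPM. Intervals here and below cover counting error only.

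The heme breakdown genes were highest in macrophages. *Hmox1* was 1023 CPM in IEG+, 782 CPM in resident-like, 564 CPM in inflammatory-like macrophages and 520 CPM in 27 monocytes, then 250 CPM in *Saa3*+ myeloid cells, 190 CPM in neutrophils and 181 CPM in cDC2. Over mice, the ranges of IEG+ and resident-like macrophages overlapped (629 to 1467 CPM in 9 mice and 311 to 972 CPM in 10 mice). Within a mouse *Hmox1* was higher in IEG+ cells in every mouse with both classes except mouse 9 (847 against 889 CPM). This difference was not tested. In every lymphocyte class *Hmox1* was at or under 16.1 CPM, and 3.18% of thinned B cells held a UMI (1.87 to 5.05%) against 56.7% of resident-like cells (52.9 to 60.5%). Within the resident class it was 925 CPM in the *Cd209d*/*Aqp1* cluster and 451 CPM in the *Ddit4*/*Txnip* cluster. *Blvrb* ran from 484 CPM in resident-like to 341 CPM in IEG+ and 224 CPM in inflammatory-like macrophages, and stood at 92.9 CPM in B cells.

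Transferrin and its receptor were distributed differently. *Trf*, best known as a liver gene, was at 1832 CPM in *Saa3*+ myeloid cells, 1094 CPM in resident-like, 939 CPM in IEG+ and 431 CPM in inflammatory-like macrophages, with 1387 CPM in the *Ddit4*/*Txnip* cluster and 967 CPM in the *Cd209d*/*Aqp1* cluster. *Tfrc* was 72.7 CPM in resident-like, 52.4 CPM in IEG+ and 9.32 CPM in inflammatory-like macrophages. That last level was below those of T cells (30.1 CPM) and B cells (28.8 CPM), in which 5.76% and 4.12% of thinned cells held a *Tfrc* UMI, against 1.67% of inflammatory-like cells (0.724 to 3.26%). T cells here include a cluster of 201 cells led by *Rag1* and *Ccr9*. *Slc11a1* stood at 148 CPM in inflammatory-like, 149 CPM in *Saa3*+, 120 CPM in resident-like cells and 109 CPM in neutrophils, was lower in cDC2 (51.6 CPM) and type 1 dendritic cells (14.5 CPM), and was at most 3.38 CPM in lymphocytes.

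The ferritin chains were not present in the same proportion in every class. *Fth1* was highest in neutrophils (17501 CPM) and in the *Mmp12*/*Spp1* inflammatory-like cluster (17725 CPM), and was 6767 CPM in resident-like macrophages. *Ftl1* was 5110 CPM in neutrophils, 10407 CPM in the *Mmp12*/*Spp1* cluster and 7608 CPM in resident-like macrophages. The ratio of *Fth1* to *Ftl1* UMIs was 0.779 ± 0.0842 in IEG+ macrophages (SD, n = 9 mice) and 0.916 ± 0.106 in resident-like macrophages (n = 10). It was 1.38 ± 0.180 in inflammatory-like macrophages (n = 5), 1.93 ± 0.428 in T cells (n = 10) and 2.93 ± 0.505 in group 2 innate lymphoid cells (n = 9). In B cells it was 3.23 ± 0.594 (n = 9), in neutrophils 3.92 ± 1.07 (n = 3) and in gamma delta T cells 4.30 ± 1.38 (n = 4). Resident-like macrophages, at 0.751 to 1.06, did not overlap B cells at 2.63 to 4.43. Their range overlapped that of IEG+ macrophages at 0.661 to 0.906. Within a mouse the ratio was lower in IEG+ than in resident-like cells in every mouse with both, though nearly equal in mouse 9. This difference was not tested. Capture may differ between the chains, so the ratio is read between classes and not as a ratio of molecules. Both genes have processed copies in the genome, and the listed copy *Ftl1-ps1* held 4228 UMIs against 262924 for *Ftl1*.

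**Figure D1:**
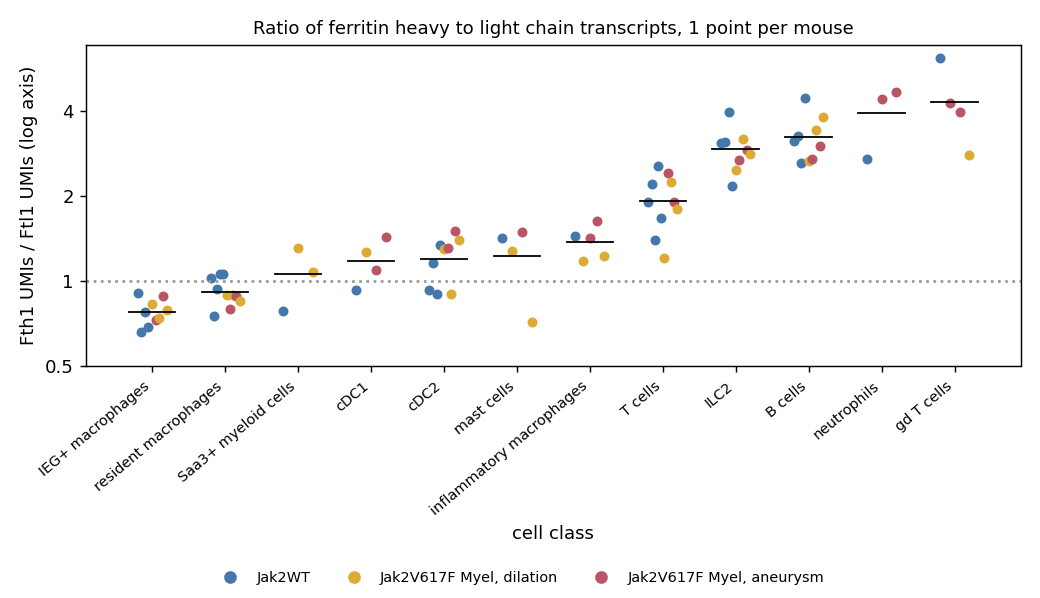
Ratio of *Fth1* to *Ftl1* UMIs by cell class on a log axis, 1 point per mouse with at least 10 cells, coloured by group, with a black line at the mean and a dotted line at 1. Resident-like and IEG+ macrophages lie lowest, with means of 0.916 and 0.779. B cells, group 2 innate lymphoid cells (ILC2), neutrophils and gamma delta T cells lie above 2.

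The exporter was sparse. *Slc40a1* reached 138 CPM in 111 neutrophils, 45.3 CPM in resident-like, 37.3 CPM in inflammatory-like and 9.86 CPM in IEG+ macrophages. It was at most 1.69 CPM in each lymphocyte class and 0.477 CPM in *Saa3*+ myeloid cells. After thinning, 22.2% of neutrophils (14.8 to 31.2%) and 7.93% of resident-like macrophages (6.00 to 10.2%) held a UMI, against 0.375% of B cells (0.0454 to 1.35%). The unthinned shares were 35.1%, 22.7% and 0.357%. Neutrophils and *Saa3*+ myeloid cells each reached 10 cells in only 3 mice, so their levels rest on few animals.

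**Figure D2:**
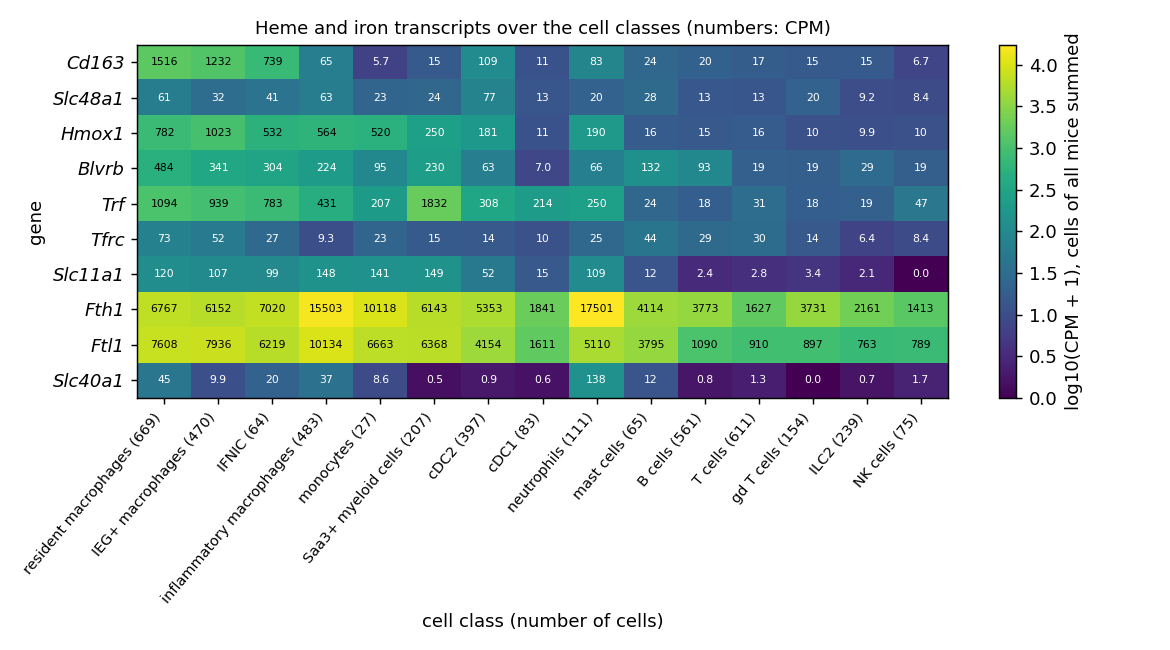
CPM of the 10 genes (rows) in 15 cell classes (columns, with the number of cells), all mice summed, coloured by log10(CPM + 1) with the CPM written in each cell. *Cd163* falls from 1516 CPM in resident-like to 65 CPM in inflammatory-like macrophages, while *Fth1* is highest in neutrophils and inflammatory-like macrophages. Most inflammatory-like cells came from the mice with aneurysm.

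Genes whose pattern over 14 cell classes was most like that of each member were listed by Pearson's r of log levels among 5903 genes, as a description, since the classes share a library and differ in depth. *Hmox1* was closest to *Rin2* (r = 0.98), *Ctsb*, the cathepsin B gene (0.98), and *Csf1r*, the receptor for macrophage colony-stimulating factor (0.98). *Cd163* was closest to *Kitl* (0.96), the mannose receptor gene *Mrc1* (0.96) and *Prune2* (0.95). *Ftl1* was closest to *Lamp2* (0.98), *Ier3* (0.97) and *Atp6v0c* (0.97), of which the first and last encode lysosomal proteins. *Fth1* was closest to *Zswim4* (0.93), *Cd300lb* (0.90) and *Cd300ld* (0.89), and *Slc40a1* to *Pfkfb4* (0.93), *Tlr6* (0.93) and *Siglece* (0.92). *Trf* was closest to *Lyz2* (0.98), *Cd68* (0.97) and *Ifi202b* (0.96), *Slc11a1* to *Anxa3* (0.97), *Tlr2* (0.97) and *Fndc3b* (0.96), and *Blvrb* to *Apoe* (0.95), *Tlr7* (0.92) and *Lamp1* (0.91). *Slc48a1* had *Clec10a* (0.91), *Vat1* (0.87) and *Socs6* (0.85), and *Tfrc* had *Atf2* (0.86), *Sirt1* (0.84) and *Ppp6r3* (0.82) as nearest genes. Among the members, *Ftl1* and *Slc11a1* were most alike (0.95), and *Trf* and *Tfrc* least (0.13).

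The first comparison asked whether Jak2V617F changed these genes in resident-like macrophages. *Hmox1* was higher in mutant mice and was the only member past the threshold. In Jak2WT mice 1 to 5 it was 471, 652, 311, 378 and 519 CPM. In mutant mice 6 to 10 it was 967, 972, 955, 889 and 854 CPM. All 5 mutant mice lay above all 5 Jak2WT mice, and they varied less (928 ± 53.0 against 466 ± 131 CPM, SD). The fold was 1.97 (log2 fold change 0.98 ± 0.14, SE, edgeR quasi-likelihood test, adjusted p = 0.00222). Of the 10 members 1 was called, where 2.26% of the 6800 genes tested were called, 109 of them higher and 45 lower in mutant mice.

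The ferritin chains lay higher in mutant mice by less. *Fth1* was 6334, 5931, 6259, 6326 and 6363 CPM in Jak2WT and 6839, 7052, 7107, 7219 and 6785 CPM in mutant mice. The groups did not overlap, yet the difference was small and missed the threshold (log2 fold change 0.16 ± 0.07, edgeR adjusted p = 0.225, or 0.0177 by DESeq2). *Hmox1* and *Fth1*, 2 of the 10 members, did not overlap between genotypes, and 3.38% of all genes tested did not. *Ftl1* was 6193, 7897, 6680, 5945 and 5998 CPM in Jak2WT and 7664, 8814, 7977, 8144 and 7949 CPM in mutant mice. Only mouse 2 of the Jak2WT group reached into the mutant range, and *Ftl1* lay just short of the threshold (0.31 ± 0.08, adjusted p = 0.0544, or 0.0120 by DESeq2). Without mouse 2 its edgeR adjusted p was 0.00476, and this was the only 1 of 10 fits with a mouse left out that called it. Of 25 alternatives in all, 6 called *Ftl1*.

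**Figure D3:**
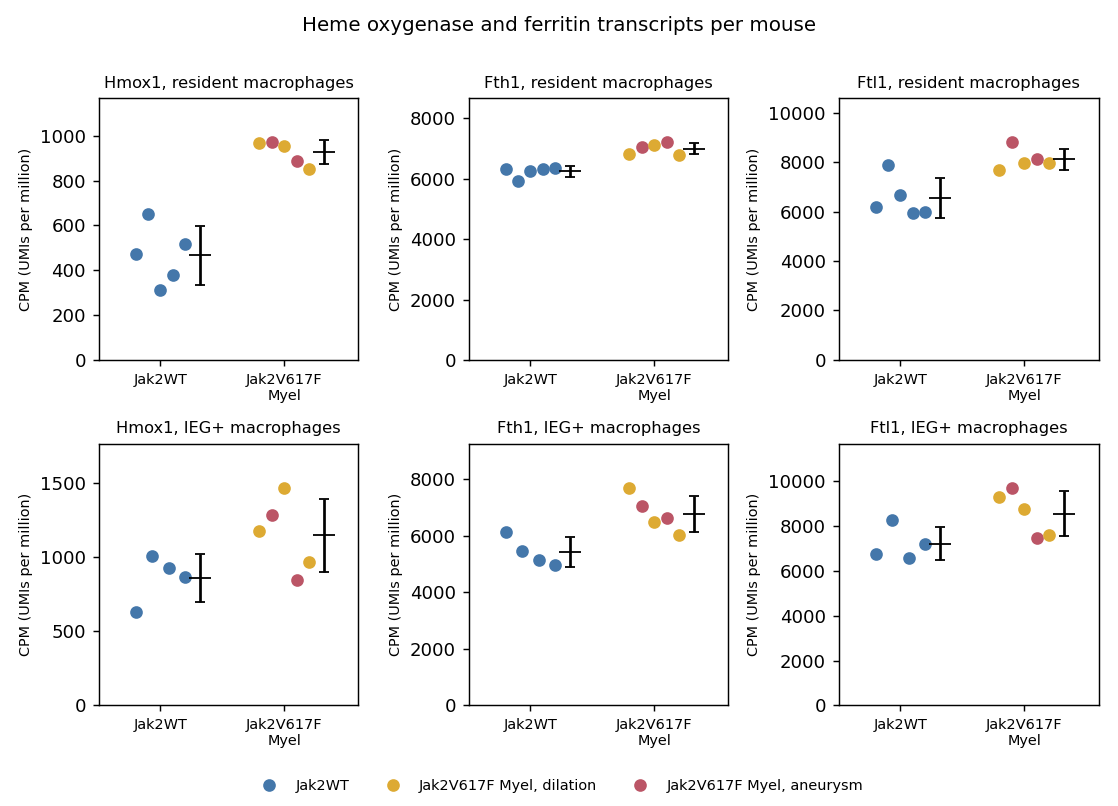
CPM of *Hmox1*, *Fth1* and *Ftl1* in resident-like (top) and IEG+ macrophages (bottom), 1 point per mouse, with the mean and SD of each genotype in black. In resident-like cells *Hmox1* lies at 311 to 652 CPM in Jak2WT and 854 to 972 CPM in mutant mice, and in IEG+ cells the genotypes overlap for all 3 genes.

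The other 7 members were not called. *Cd163* ranged from 1089 to 1806 CPM in Jak2WT and from 1223 to 1645 CPM in mutant mice (log2 fold change 0.02 ± 0.12, adjusted p = 0.968), a complete overlap. *Tfrc* had a log2 fold change of 0.66 ± 0.38 (adjusted p = 0.459), with 28.0 to 108 CPM in Jak2WT and 48.0 to 181 CPM in mutant mice. Mouse 6 held the highest *Tfrc* value and mouse 2 the highest in Jak2WT, and without them the log2 fold change was 0.26 and 1.11 (adjusted p = 0.783 and 0.135). *Slc48a1* stood at 0.30 ± 0.16 (adjusted p = 0.451) and *Slc40a1* at 0.12 ± 0.31 (0.929). *Blvrb* (-0.12 ± 0.12, 0.731), *Trf* (-0.15 ± 0.11, 0.611) and *Slc11a1* (-0.23 ± 0.12, 0.393) had values below 0, and *Trf* turned to 0.30 in the *Cd209d*/*Aqp1* cluster alone (adjusted p = 0.474). Over the 10 members the median log2 fold change was 0.14, and over all genes tested -0.03. Because transcripts were counted as shares of a sum over cells, a change in the make-up of the class and a change per cell cannot be told apart in these values.

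Within each resident-like cluster *Hmox1* kept its direction and lost its call. In the *Cd209d*/*Aqp1* cluster, where 3 Jak2WT mice had at least 10 cells, it was 586, 749 and 809 CPM against 1034, 1040, 1075, 930 and 919 CPM in mutant mice (log2 fold change 0.50 ± 0.13, unadjusted p = 0.00129, edgeR adjusted p = 0.150). In the *Ddit4*/*Txnip* cluster it was 416, 397, 274, 359 and 267 CPM against 693, 622, 435, 581 and 657 CPM (0.78 ± 0.16, unadjusted p = 0.000171, adjusted p = 0.437). Neither cluster showed overlap of *Hmox1* between genotypes. No overlap was seen for 8.24% of genes in the first cluster and for 1.01% in the second. In the first, *Fth1* (5911 to 6411 against 6713 to 7356 CPM) and *Ftl1* (6323 to 7796 against 7803 to 9191 CPM) did not overlap either, and in the second *Slc48a1* did not (39.8 to 57.3 against 64.8 to 86.7 CPM). Calls were few in both, 0.165% of 6651 genes and 0% of 2563 genes, and 0 members were called in either by edgeR. An unadjusted p under 0.05 was seen for 4 of 10 and 2 of 9 members, and for 615 of 6651 and 168 of 2563 genes. These splits were chosen after the data were seen.

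**Figure D4:**
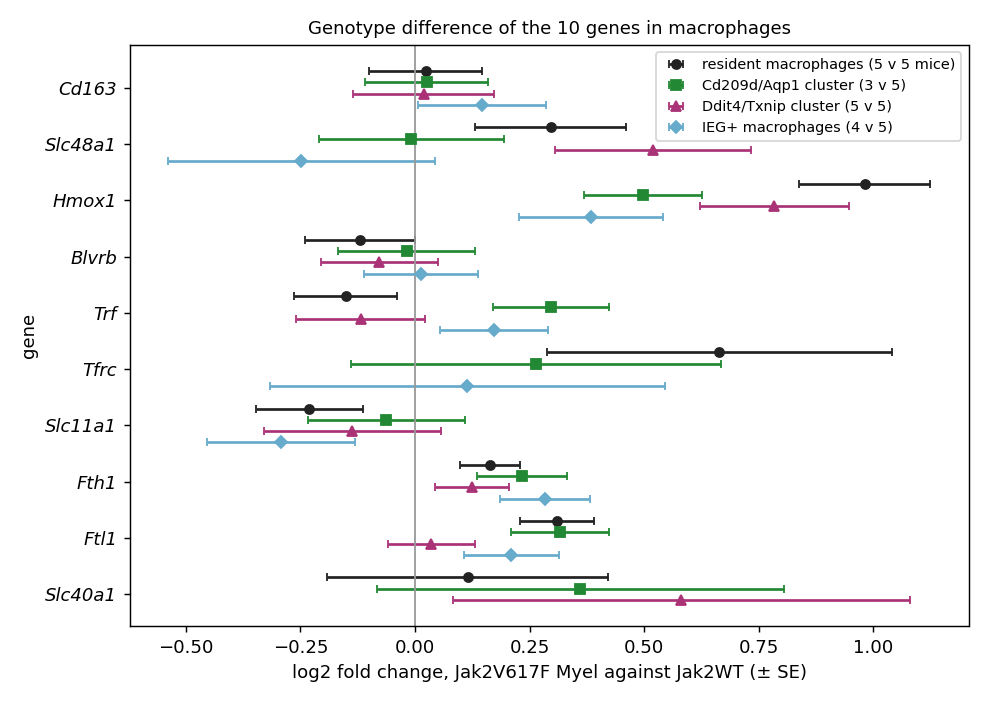
Log2 fold change between Jak2V617F Myel and Jak2WT mice (horizontal axis, bars SE) for the 10 genes in resident-like macrophages, in each resident-like cluster and in IEG+ macrophages. *Hmox1* lies to the right of 0 in all 4, from 0.38 to 0.98, and *Cd163* lies near 0.

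Genes that respond to cell handling lay higher in mutant mice, with overlap. The summed level of the 4 IEG markers in resident-like cells was 7237 to 12656 CPM in Jak2WT and 11338 to 14222 CPM in mutant mice, and *Hspa1a*, a heat shock gene, was 2263 to 4225 and 2945 to 4308 CPM. *Hmox1* is itself a stress gene, and the part of digestion stress in its difference was not tested. Hemoglobin transcripts did not follow genotype as CPM. They were 68.8 to 87.8 CPM in 8 of the 10 mice, with 548 CPM in mouse 5 and 1780 CPM in mouse 10, where single droplets held 311 of 375 and 2027 of 2424 hemoglobin UMIs. The share of resident-like cells with a hemoglobin UMI was 47.4 to 55.6% in Jak2WT and 54.5 to 64.6% in mutant mice. Without those cells *Hmox1* kept its call. The part of hemoglobin in the *Hmox1* difference was not tested. The 5 neutrophil markers summed to 47.6 to 113 CPM in Jak2WT and 60.6 to 150 CPM in mutant mice.

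In IEG+ macrophages, which share resident markers, the differences pointed the same way and were not called. *Hmox1* was 629, 1004, 926 and 863 CPM in 4 Jak2WT mice and 1172, 1281, 1467, 847 and 966 CPM in mutant mice (log2 fold change 0.38 ± 0.16, edgeR adjusted p = 0.455). *Fth1* was 6135, 5453, 5145 and 4963 CPM against 7700, 7057, 6493, 6609 and 6031 CPM (0.28 ± 0.10, adjusted p = 0.348), so mouse 10 fell just below mouse 1. *Ftl1* had a log2 fold change of 0.21 ± 0.10 (adjusted p = 0.548) and *Cd163* of 0.15 ± 0.14 (0.854). By edgeR 0 of 9 members tested were called, and 2 had an unadjusted p under 0.05, as had 471 of 5032 genes. DESeq2 also called 0 members, and edgeR called 0.0596% of the 5032 genes. Every member overlapped between genotypes, where 3.06% of genes did not. Hemoglobin transcripts stood at 3951 CPM in mouse 9 and 1293 CPM in mouse 10 of this class and at 75.8 to 129 CPM in the other 7, and their part in these values was not tested. The genotype effect on *Hmox1* was smaller in IEG+ than in resident-like cells by 0.62 ± 0.17 on the log2 scale, which was not past the threshold once adjusted (edgeR with mouse as a block, unadjusted p = 0.00158, adjusted p = 0.118). In that test 0 of 10 members and 0.945% of 6346 genes were called.

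Among leukocytes that LysM-Cre does not target or targets in part, no member was called. In T cells 4 members could be tested and 0% of 3813 genes were called, in B cells 3 members and 0% of 3303 genes, in group 2 innate lymphoid cells (ILC2) 2 members and 0% of 1871 genes. In cDC2, 8 members were tested and 0.0235% of 4261 genes were called. There *Fth1* was 3681 ± 850 CPM in 4 Jak2WT and 5458 ± 1019 CPM in 5 mutant mice (log2 fold change 0.53 ± 0.18, edgeR unadjusted p = 0.0110, adjusted p = 0.439), the only member of these 4 cell types with an unadjusted p under 0.05. Of the 4261 genes tested in cDC2, 338 had such a p. In B cells *Fth1* was 3730 ± 259 and 3829 ± 230 CPM (0.05 ± 0.09, adjusted p = 0.999). In T cells the ferritin values lay above 0 as in macrophages, with *Fth1* at 1409 ± 267 and 1856 ± 279 CPM (0.22 ± 0.17, adjusted p = 0.771) and *Ftl1* at 743 ± 154 and 999 ± 161 CPM (0.22 ± 0.15, adjusted p = 0.731). The T cell class joined a cluster of 410 cells and one of 201 cells led by *Rag1* and *Ccr9*, which were not tested apart. Mouse 3 (Jak2WT) gave 162 of its 611 cells. Hemoglobin transcripts in T cells stood at 16536 CPM in mouse 3 and 3309 CPM in mouse 7, against 41.3 to 295 CPM in the other mice. Their part in these values was not tested. The log2 fold changes are after TMM scaling and the CPM are not, so the 2 can differ. DESeq2 called 0 members in each of the 4 classes.

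The next comparison set the 2 mice with aneurysm against the 3 with dilation, again in resident-like macrophages, and *Slc40a1* differed most among the members. The Jak2WT mice stayed in the fit as a group of their own, so the spread behind each SE and p came from them too. It was 74.6 and 62.1 CPM in aneurysm (64 and 84 UMIs) and 45.7, 34.6 and 18.4 CPM in dilation (35, 26 and 25 UMIs), with 28.0 to 51.2 CPM in Jak2WT mice. Both aneurysm mice lay above all others (fold 2.15, log2 fold change 1.10 ± 0.29, unadjusted p = 0.00127), but the difference was not called (edgeR adjusted p = 0.623). *Hmox1* did not separate these mice, at 972 and 889 CPM against 967, 955 and 854 CPM (0.00 ± 0.21). Of the members 0 were called by edgeR or DESeq2, and 1 had an unadjusted p under 0.05, as had 299 of 7781 genes. By edgeR 0.0129% of the 7781 genes were called. Values of 2 members, *Slc40a1* and *Ftl1*, did not overlap between aneurysm and dilation, and with so few mice 20.1% of all genes did not.

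CD163 was also read on the cell surface with an antibody whose barcode was counted in the same cells. Over classes the antibody followed the transcript, with 777 ± 233 counts per cell in resident-like macrophages (SD, n = 10 mice), 536 ± 188 in IEG+ (n = 9), 70.7 ± 29.8 in inflammatory-like (n = 5) and 77.9 ± 40.3 in cDC2 (n = 9). B cells and T cells, as background, gave 27.5 ± 3.62 (n = 9) and 25.6 ± 3.95 (n = 10). Low-RNA macrophages, which were left out above, gave 269 ± 70.0 (n = 10).

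Between genotypes, antibody counts per cell were higher in mutant mice. In resident-like macrophages the antibody gave 563, 670, 462, 535 and 658 counts per cell in Jak2WT mice and 1007, 845, 955, 1163 and 915 in mutant mice, without overlap. The means were 578 ± 87.1 and 977 ± 120 (69.2% higher in mutant mice, exact permutation test, two-sided, p = 0.00794, the smallest that 5 against 5 mice can give). Within the clusters the antibody was 33.5% higher in the *Cd209d*/*Aqp1* cluster (825 against 1101 counts per cell, 3 against 5 mice, exact permutation p = 0.0357) and 35.8% higher in the *Ddit4*/*Txnip* cluster (402 against 546, 5 against 5 mice, exact permutation p = 0.0476), so the cluster with more antibody was also the larger one in mutant mice. In IEG+ macrophages the means were 361 ± 128 (n = 4) and 676 ± 57.2 (n = 5, exact permutation p = 0.00794). *Cd163* UMIs per resident-like cell, the transcript on the same scale, were also higher, at 14.0 ± 1.86 and 17.8 ± 1.51 (n = 5 each, exact permutation p = 0.00794), as were all UMIs per cell (medians of 7626.5 to 9926 and 10905 to 13056 per mouse), while its share of them was not. Antibody counts per *Cd163* UMI were 41.9 ± 7.87 and 54.8 ± 4.20 (n = 5 each, exact permutation p = 0.0159, a ratio chosen after the data were seen), with 30.5 to 49.9 and 48.6 to 58.6 over mice. Counts per cell also depend on staining and capture, and 23.3% of the 73 antibodies with counts did not overlap between genotypes in resident-like cells. The 4 isotype controls, which bind no target, summed to 0.551 ± 0.186 and 1.40 ± 0.331 counts per cell. Among them the rat IgG2a control had no counts. All other antibodies together gave 996 ± 249 and 1103 ± 109 (exact permutation p = 0.381).

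Scaled to the other antibodies, the genotypes overlapped in resident-like cells and not in IEG+ cells. In resident-like macrophages CD163 per count of all other antibodies was 0.576, 0.508, 0.619, 0.459 and 0.855 in Jak2WT and 0.875, 0.690, 0.953, 1.19 and 0.788 in mutant mice, with mouse 5 inside the mutant range (exact permutation p = 0.0238). Within the clusters the ratio was 0.712 ± 0.236 and 0.931 ± 0.203 (*Cd209d*/*Aqp1*, 3 against 5 mice, exact permutation p = 0.214) and 0.493 ± 0.197 and 0.7099 ± 0.0829 (*Ddit4*/*Txnip*, 5 against 5, exact permutation p = 0.0714). In IEG+ macrophages this ratio was 0.297 ± 0.0455 and 0.673 ± 0.110 without overlap (exact permutation p = 0.00794). With TMM scaling over all antibodies the fold was 1.16 in resident-like cells (log2 fold change 0.22 ± 0.14, edgeR adjusted p = 0.364) and 1.32 in IEG+ cells (0.40 ± 0.22, adjusted p = 0.501). By that test 0% of the 73 antibodies were called in either class, CD163 included. The Jak2WT and mutant cells were also labelled with different fluorochromes on the CD45.2 antibody for sorting, so staining and genotype cannot be told apart.

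**Figure D5:**
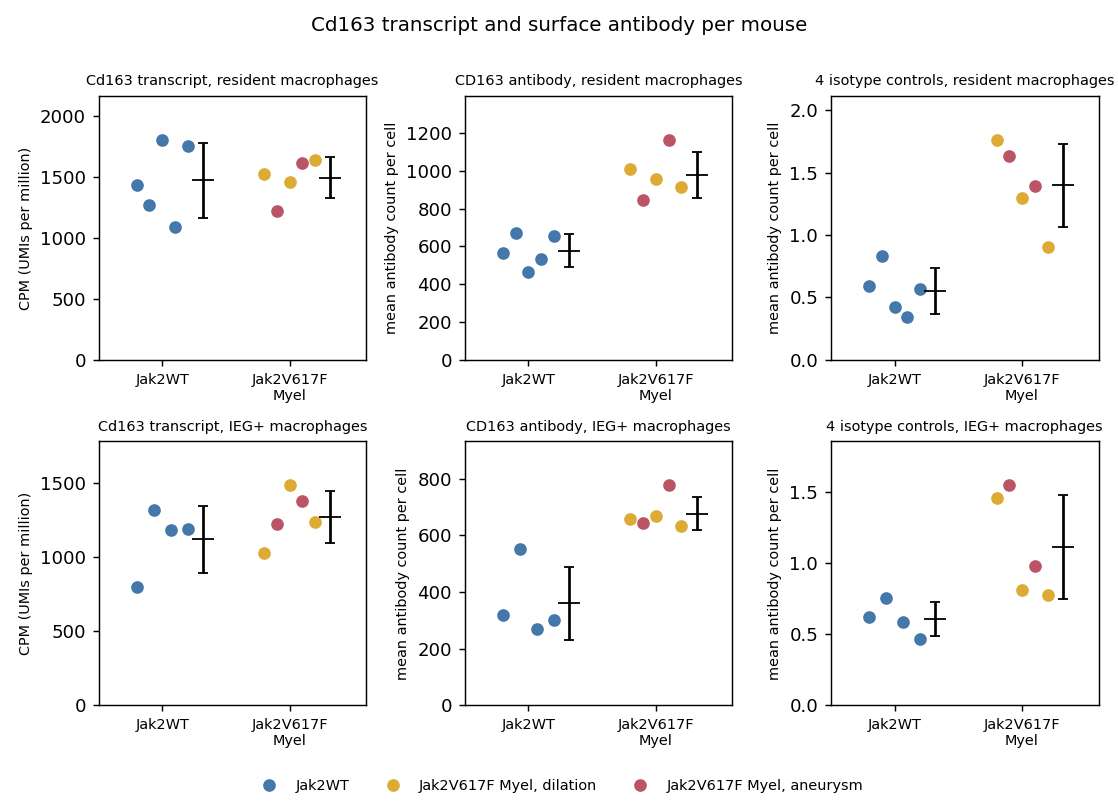
*Cd163* CPM, CD163 antibody counts per cell and the sum of 4 isotype control antibodies per cell in resident-like (top) and IEG+ macrophages (bottom), 1 point per mouse, with the mean and SD of each genotype in black. The rat IgG2a control had no counts. The transcript as CPM overlaps between genotypes in both classes, while the antibody lies at 462 to 670 in Jak2WT and 845 to 1163 in mutant resident-like cells, and isotype controls are higher in mutant mice too.

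Of 55 other genes of heme synthesis, transport, iron sensing and mitochondrial iron, and targets of NRF2, 28 could be tested in resident-like macrophages and 1 was called. In the same fit 2.26% of all 6800 genes tested were called, so 1 of 28 is near that share. The gene called was *Nfe2l2*, which encodes NRF2, an activator of *Hmox1* and ferritin transcription. It was 183, 360, 226, 235 and 235 CPM in Jak2WT and 419, 429, 397, 447 and 341 CPM in mutant mice, with mouse 2 of Jak2WT above mouse 10 (fold 1.64, log2 fold change 0.71 ± 0.15, edgeR adjusted p = 0.0162). It was called in 17 of 25 alternatives. The call was lost without mouse 1 (adjusted p = 0.0584) or mouse 9 (0.0576), in the *Cd209d*/*Aqp1* cluster alone (0.220), in the *Ddit4*/*Txnip* cluster alone, where the log2 fold change was 0.096 (0.9804), and in 4 other ways of choosing the cells (0.053 to 0.19). *Bach1*, the heme-sensing repressor of *Hmox1*, had a log2 fold change of 0.48 ± 0.16 (adjusted p = 0.146), and *Txnrd1*, an NRF2 target named after its values were seen, of 0.92 ± 0.26 (0.0659). The other NRF2 targets on the list, *Nqo1*, *Gclm*, *Gclc*, *Srxn1* and *Slc7a11*, were not called or could not be tested. Heme synthesis stood at a median of -0.33 over 5 genes tested, and 0 of them was called. *Slc11a2*, the endosomal iron importer, had 0.39 ± 0.27 (adjusted p = 0.604), *Ncoa4*, the ferritin autophagy receptor, -0.08 ± 0.17 (0.909), and *Ireb2*, an iron regulatory protein, -0.08 ± 0.23 (0.942). *Spic*, a heme-induced transcription factor of iron-recycling macrophages, had 3 to 22 UMIs per mouse and did not pass the filter on low counts. The median over all 28 genes was -0.05, close to that of all genes.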

How the data were processed

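The deposited table holds UMI counts for genes, antibodies and hashtags from 1 pooled CITE-seq run, made by the authors with Cell Ranger 6.0.2 on mm10. Nothing in it was normalized. Barcodes were assigned to mice with HTODemux (quantile 0.99), cells over 10% mitochondrial counts were removed, and 2000 variable genes and 20 principal components were clustered in Seurat 5.3.0 at resolution 0.3. Macrophages were clustered again, low-RNA clusters (median UMI count under 1/3 of that of all macrophages) were set aside, and a last clustering used resolution 0.8. Doublets within a mouse were not called. Clusters led by B cell genes (36 cells) and T cell genes (16 cells) that also held macrophage markers were left unnamed.

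The members and gene lists were chosen with earlier results of these data known. UMI counts were summed per mouse and class of at least 10 cells and tested with edgeR 4.0.16 (filterByExpr, TMM, quasi-likelihood, Benjamini-Hochberg over all genes, threshold 0.05). The SE of a log2 fold change was derived from its F statistic. The scripts were tested on simulated counts. DESeq2 1.42.0 and the other alternatives are in the closing section. Named genes were the 10 members, the 3 most similar genes of each, pathway genes called and 6 fixed regulators. Positions come from GENCODE vM21, whose assembly GRCm38 is that of mm10.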

Additional observations from a re-analysis of the deposited data

Results flagged for a closer look

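In 44 groups of 4 or 5 mice (10 genes and the CD163 antibody, by genotype, in resident-like and IEG+ macrophages), 3 held a mouse that lay far from the others of its group. Chance alone sets about 1 in 20 groups apart in this way. *Fth1* in resident-like cells of Jak2WT mouse 2 was 5931 CPM against 6259 to 6363 CPM in the other 4. *Tfrc* in resident-like cells of mutant mouse 6 was 181 CPM against 48.0 to 72.3 CPM. The CD163 antibody in IEG+ cells of mutant mouse 9 was 776 counts per cell against 634 to 667.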

How the results depend on the processing

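The count of members called between genotypes in resident-like macrophages was 1. It was 3 with DESeq2 (with *Fth1* and *Ftl1*) and without a filter on low counts (with *Ftl1* and *Tfrc*), 2 with RLE size factors, at a mitochondrial limit of 5% and with 3 groups in 1 fit (with *Ftl1*), 1 to 2 when each mouse was left out, and 0 within either resident-like cluster. Of the genes tested, 2.26% were called in the main fit, 2.82% without the filter and 2.4% with RLE size factors. With DESeq2 the share was 2.52%, which is over fewer genes than the 15249 it fitted (183 called). Within the *Cd209d*/*Aqp1* and *Ddit4*/*Txnip* clusters 0.165% and 0% were called. For the other settings, here and below, the share over all genes is not given, so their counts cannot be set against it. *Hmox1* was called in 23 of 25 alternatives, with a log2 fold change of 0.50 to 1.15 over all of them.
The count of other heme and iron genes called was 1. It was 4 without the filter, 2 with 3 groups in 1 fit, 0 with all genes in the clustering, at macrophage resolution 1.2, with low-RNA clusters kept, with resident-like and IEG+ cells pooled and within either cluster, and 0 to 2 when each mouse was left out. Between aneurysm and dilation the count of members called was 0, and 1 (*Slc40a1*, edgeR adjusted p = 0.00768) without the filter. The share of all genes called in that unfiltered fit is not given here, so the call cannot be set against it. Over all genes, 154 were called between genotypes in resident-like cells, 183 by DESeq2, 430 without the filter, and 11 and 0 within the clusters.
The CD163 antibody difference with TMM scaling (0.22) was not called. As counts per cell it was 0.76 (exact permutation p = 0.00794). As a ratio to the other antibodies, a test chosen after seeing the data, it was 0.58 (exact permutation p = 0.0238). These permutation p-values are for CD163 alone and were not adjusted over antibodies, so they are not set against the threshold. With TMM scaling the difference was 0.13 to 0.31 when each mouse was left out, and 0.045 (edgeR adjusted p = 0.945) in the *Cd209d*/*Aqp1* cluster.
Some differences that were not called changed sign. *Hmox1* between aneurysm and dilation was 0.0073 with DESeq2, 0.0040 with RLE factors, 0.011 without the filter and -0.058 to 0.061 when each mouse was left out. *Cd163* between genotypes was -0.059 in thinned cells, -0.015 without cells holding hemoglobin and -0.032 to 0.12 when each mouse was left out. *Slc40a1* was -0.12 with MULTIseqDemux, -0.13 at resolution 1.2, -0.10 with low-RNA clusters kept and -0.087 to 0.36 when each mouse was left out. In the *Cd209d*/*Aqp1* cluster *Slc48a1* was -0.0081 and *Trf* 0.30. The cause of these changes was not tested.
No paired analysis between the genotypes was possible because each mouse has 1 genotype. Without mouse as a block the difference of the genotype effect on *Hmox1* between IEG+ and resident-like cells was -0.58 (adjusted p = 0.632), and 0 members were called with or without it. No alternative called a member in IEG+ cells or in the other leukocytes, and the mean level of each member in resident-like cells moved by less than 1 SD. In IEG+ cells the value of *Cd163* (0.15) was 0.018 without mouse 1 and 0.23 without mouse 2. Depth limits sparse genes, with 8 to 84 UMIs of *Slc40a1* and 3 to 22 of *Spic* per mouse in resident-like cells.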

Other observations

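Macrophages of low RNA content, 382 cells left out of the comparisons, held hemoglobin transcripts at 56371 to 198985 CPM in 5 mice (1, 3, 8, 9 and 10, of both genotypes) and at 256.7 to 537 CPM in the other 5. Their *Fth1* to *Ftl1* ratio was 1.15 ± 0.272 (SD, n = 10 mice), their *Slc40a1* 52.9 CPM and their *Cd163* 960 CPM, and their *Hmox1* was 289 CPM, below the 782 CPM of resident-like cells. *Slc40a1* was at 0.477 CPM in *Saa3*+ myeloid cells, which held the most *Trf* (1832 CPM) of the classes. Only mice 5, 8 and 10 gave at least 10 of these cells, with *Trf* at 1840, 1281 and 1855 CPM, so their levels rest on few animals.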
